A study of Mus musculus with 8 samples.

Results

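Smooth muscle and pericyte genes were compared between lungs of mice that had lost Atf4 as adults and lungs of mice with intact Atf4. The set holds 32 genes chosen by name, comprising 20 genes of the contractile apparatus of smooth muscle, 9 genes of pericytes and 3 further genes of muscle (Itga7, Itga8 and Mustn1). Each gene was read from a transcript cluster, a group of probes along a gene, that the array's annotation ties to a single symbol. All 32 genes had exactly 1 such cluster, and 30176 genes among 65956 transcript clusters had at least 1. Values are log2 signals, so a difference of 1 is a doubling of signal.

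The Atf4Δ/Δ lungs came from 4 Rosa26::CreERT2:Atf4fl/fl mice and the Atf4WT/WT lungs from 4 Rosa26::CreERT2:Atf4WT/WT mice. Both genotypes therefore carried a Cre recombinase that tamoxifen activates and that the Rosa26 locus drives in most tissues, and both received tamoxifen. They differed in the alleles of Atf4, which carry loxP sites in the Atf4Δ/Δ mice. The mice were 13 weeks old and their lungs were taken 4 weeks after tamoxifen, with 3 males and 1 female in each genotype. Deletion was not limited to muscle or pericytes, so the comparison covers the whole lung of a whole-body knockout. RNA came from the whole organ, in which fewer cells of a type and less RNA per cell cannot be told apart. Titles number the lungs as biological replicates, and nothing in the labels says which lungs were collected or hybridised together.

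The targeted gene read 6.34, 6.26, 6.48 and 6.38 in Atf4Δ/Δ replicates 1 to 4, against 6.99, 8.03, 8.0 and 7.58 in Atf4WT/WT replicates 1 to 4. Atf4 fell by 1.29 (SE 0.21, limma adjusted p = 0.0485), and all Atf4Δ/Δ lungs lay below all Atf4WT/WT lungs. Atf4WT/WT replicate 1 stood apart with the lowest Atf4 of its genotype, and counts without it are given beside those it moves. Array medians lay between 5.21 and 5.29. Defining markers of lung epithelium were bright on every array, with means over 8 markers of 16.03 to 16.22 in Atf4Δ/Δ lungs and 16.18 to 16.30 in Atf4WT/WT lungs, and 12 skeletal muscle markers averaged 4.95 to 5.04 in Atf4Δ/Δ lungs and 4.94 to 5.03 in Atf4WT/WT lungs.

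Smooth muscle wraps the airways and the pulmonary arteries and veins. It shortens when calcium-bound calmodulin activates myosin light chain kinase, which phosphorylates the regulatory light chain of smooth muscle myosin and lets the motor pull on filaments of α- and γ-actin. Genes of this apparatus share a control element, the CArG box, to which serum response factor binds together with its coactivator myocardin. Pericytes are mural cells that sit on capillaries within the basement membrane. They are recruited by platelet-derived growth factor from endothelium, signal through Notch3 and carry a potassium channel built from Kcnj8 and Abcc9. In mice, a sleeve of cardiac muscle also surrounds the pulmonary veins, and it uses calcium store proteins that smooth muscle shares.

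The stretches upstream of the start of 3 members are shown because they hold this element or a near match to it, defined below. RefSeq gives promoter windows, each with 250 bases before and 50 after a start, for 25 of the 32 members, with 29 windows because Csrp1, Art3 and Cald1 have several starts. Actg2, Tagln, Myh11, Nexn, Myocd, Higd1b and Itga7 had no window and were not searched. A CArG box (CC, 6 bases that are A or T, GG, which reads the same on both strands) was found in the windows of 2 members, Myl9 and Trpc6, and in 1.63% of all 32851 windows. A CArG-like element, spelled CCNNNNNNGG with at least 5 of the 6 inner bases A or T, was found in 3 members, adding Acta2, and in 9.98% of all windows. In the lines that follow, which run 5′ to 3′ on the gene's strand from base -170 to base -1 before the start, capitals mark the CArG-like elements.
Acta2, GRCm38.p6 chr19:34255374-34255543, minus strand: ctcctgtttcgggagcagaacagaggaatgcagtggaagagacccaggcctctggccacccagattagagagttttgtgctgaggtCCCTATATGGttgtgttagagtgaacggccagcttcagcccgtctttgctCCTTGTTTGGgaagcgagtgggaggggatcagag
Myl9, GRCm38.p6 chr2:156775294-156775463, plus strand: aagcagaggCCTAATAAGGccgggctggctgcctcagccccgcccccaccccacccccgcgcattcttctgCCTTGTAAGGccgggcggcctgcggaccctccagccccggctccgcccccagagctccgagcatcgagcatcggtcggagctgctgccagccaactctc
Trpc6, GRCm38.p6 chr9:8543972-8544141, plus strand: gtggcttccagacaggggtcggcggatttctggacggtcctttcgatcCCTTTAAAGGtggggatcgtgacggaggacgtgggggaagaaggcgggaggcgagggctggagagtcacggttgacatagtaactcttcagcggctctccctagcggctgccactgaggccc

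The element at base -161 of Myl9 and that at base -122 of Trpc6 are full CArG boxes, while the second element of Myl9 (base -99) and both elements of Acta2 (bases -84 and -34) hold 1 inner base that is G or C. A composite motif of ATF4, spelled TGATGNAA and searched on both strands, was found in 1 member, Art3, and in 3.97% of all windows. The match lies at base -221 of 1 of the Art3 starts and is shown in capitals from base -250 to base -151, because it is the sole match to the motif of the deleted factor among the members' windows. These matches are letters in a window and were not tested for binding.
Art3, GRCm38.p6 chr5:92331577-92331676, plus strand: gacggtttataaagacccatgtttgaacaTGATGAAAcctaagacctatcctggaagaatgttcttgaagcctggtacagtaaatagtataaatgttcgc

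No member passed the call rule, a limma adjusted p of at most 0.05 with a fold above 1.5, in either direction. Over all transcript clusters, 0.047% were called lower and 0.229% higher in Atf4Δ/Δ lungs. At an unadjusted p of at most 0.05, 3 members were higher in Atf4Δ/Δ lungs (Myl9, Cald1 and Flna, all contractile) and 1 was lower (Higd1b, of pericytes). Among all genes 6.26% were higher and 7.19% lower by that rule, and among the 13303 genes at least as bright as the dimmest member the shares were 10.8% and 10.6%, so 3 and 1 of 32 members are close to the background. Without Atf4WT/WT replicate 1 the count of higher members was 8 (Myl9, Myocd, Cald1, Flna, Myh11, Actg2, Smtn and Acta2), where 6.53% of all genes were higher. That lung was the highest of its genotype for 14 of 20 contractile genes, so leaving it out lowers the Atf4WT/WT means of those genes. With every array kept, all Atf4Δ/Δ lungs lay above all Atf4WT/WT lungs for 2 members, Myl9 and Cald1, and below for 0 members, against 4.32% and 4.67% of all genes and 7.16% and 6.18% of the bright ones.

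**Figure D1:**
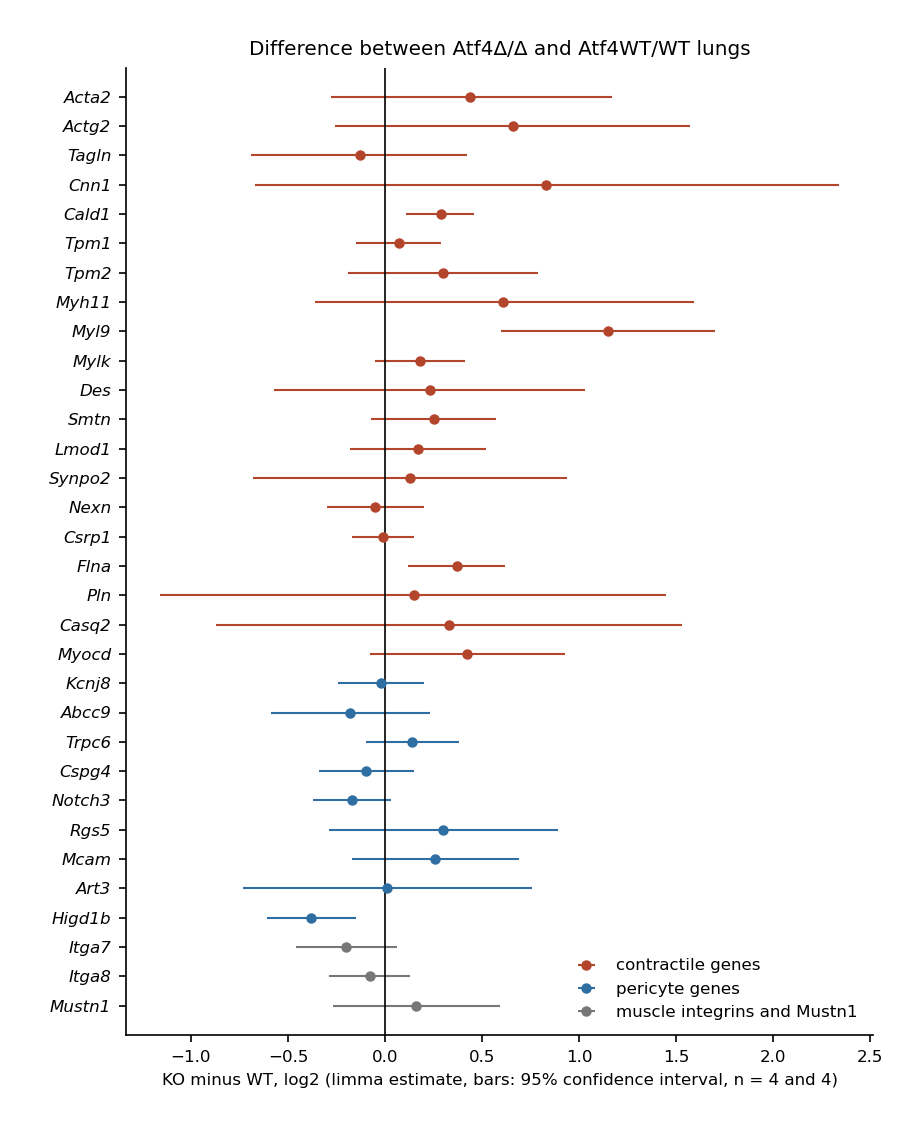
Difference in log2 signal, Atf4Δ/Δ (KO) minus Atf4WT/WT (WT), for each of the 32 genes, with points for the limma estimate and bars for the 95% confidence interval (4 lungs each), coloured by class. Intervals of Myl9, Cald1 and Flna lie above 0 and that of Higd1b below it, and the widest, from -0.67 to 2.34, belongs to Cnn1.

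The contractile genes differed in size of change but mostly in 1 direction. Their median difference, Atf4Δ/Δ minus Atf4WT/WT, was 0.27 on the log2 scale, with a range of -0.13 to 1.15, against a median of -0.02 over all genes. Single lungs moved it, to 0.16 without Atf4Δ/Δ replicate 1, 0.17 without Atf4WT/WT replicate 4 and 0.42 without Atf4WT/WT replicate 1, and it was 0.45 in males only. The Atf4Δ/Δ mean was the higher for 17 of 20 contractile genes, where it was the higher for 41.4% of all genes and for 45.4% of the genes at least as bright as the dimmest member. Without Atf4Δ/Δ replicate 1 it was the higher for 13 of 20 contractile genes and 42.7% of all genes, and without Atf4WT/WT replicate 4 for 15 and 42%. These 17 are not separate observations, because the same few lungs were high or low for many contractile genes at once. Per lung, the mean over the 20 genes was 10.80, 9.95, 10.36 and 10.17 in Atf4Δ/Δ replicates 1 to 4 and 10.51, 9.78, 10.11 and 9.62 in Atf4WT/WT replicates 1 to 4. The genotypes overlapped on this mean, which was 0.32 higher in Atf4Δ/Δ lungs with an SD of 0.36 in Atf4Δ/Δ lungs and 0.39 in Atf4WT/WT lungs (n = 4 each).

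The thin filament was represented by 7 genes. Acta2, the α-actin of smooth muscle (chromosome 19), read 15.09, 14.21, 15.02 and 14.45 in Atf4Δ/Δ lungs and 14.95, 13.82, 14.64 and 13.59 in Atf4WT/WT lungs. Replicates 1 and 3 were the highest in both genotypes, and the genotypes overlapped. The difference was 0.44 (95% confidence interval -0.28 to 1.17, adjusted p = 0.642). Actg2, the γ-actin of enteric and other smooth muscle, differed by 0.66 (-0.26 to 1.57), and its probes were not checked for sharing with Acta2 or other actins. Tagln, the actin-binding protein transgelin, read 11.32, 10.51, 11.06 and 10.27 in Atf4Δ/Δ lungs and 11.26, 11.03, 10.96 and 10.44 in Atf4WT/WT lungs. It was the 1 thin filament gene with the lower mean in Atf4Δ/Δ lungs, with a difference of -0.13 (-0.69 to 0.42, adjusted p = 0.878), and its groups overlapped throughout.

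Cnn1, the calponin that restrains the actomyosin motor in smooth muscle, had the largest difference of the thin filament genes and also the widest spread. It read 11.59, 9.49, 10.43 and 9.81 in Atf4Δ/Δ lungs and 11.02, 8.36, 10.21 and 8.40 in Atf4WT/WT lungs. The 2 dimmest Atf4WT/WT lungs lay far below the other 2, and all Atf4Δ/Δ values fell inside or just above the Atf4WT/WT range, so a difference of 0.83 had an interval of -0.67 to 2.34 (adjusted p = 0.678). Cald1, caldesmon, which binds actin, myosin and calmodulin in smooth muscle and in a shorter form in other cells, showed the opposite character. Its values were 10.80, 10.95, 10.89 and 10.91 in Atf4Δ/Δ lungs against 10.65, 10.48, 10.51 and 10.77 in Atf4WT/WT lungs, with no overlap. The difference was small, 0.29 (0.11 to 0.46), with an unadjusted p of 0.00514 and an adjusted p of 0.201 in limma. The tropomyosins, which lie along the actin filament, differed by 0.07 (Tpm1, -0.15 to 0.29) and 0.30 (Tpm2, -0.19 to 0.79).

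The myosin motor was represented by its heavy chain, its regulatory light chain and the kinase of that light chain. Myl9, the regulatory light chain of smooth muscle and non-muscle myosin (chromosome 2), had the largest difference of all 32 members. It read 12.56, 11.78, 12.24 and 11.67 in Atf4Δ/Δ lungs and 11.18, 10.35, 10.86 and 11.25 in Atf4WT/WT lungs, so that the lowest Atf4Δ/Δ lung exceeded the highest Atf4WT/WT lung. The means were 12.06 ± 0.41 in Atf4Δ/Δ lungs and 10.91 ± 0.41 in Atf4WT/WT lungs (SD, n = 4 each), a difference of 1.15 (SE 0.24, 95% confidence interval 0.60 to 1.70) or 2.22-fold, with an unadjusted p of 0.00105. The limma adjusted p was 0.114. In 18 other settings the difference lay between 0.96 and 1.28 and the adjusted p between 0.0762 and 0.363.

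Myh11, the heavy chain of smooth muscle myosin, did not separate the genotypes in this way. It read 13.18, 11.89, 12.86 and 12.43 in Atf4Δ/Δ lungs against 13.05, 11.03, 12.32 and 11.51 in Atf4WT/WT lungs. Replicate 1 was the highest and replicate 2 the lowest in each genotype, and the difference of 0.61 had an interval of -0.36 to 1.59 (adjusted p = 0.632). Mylk, the myosin light chain kinase, differed by 0.18 (-0.05 to 0.41). Whether the changes of Myl9 and Myh11 differ was not tested.

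**Figure D2:**
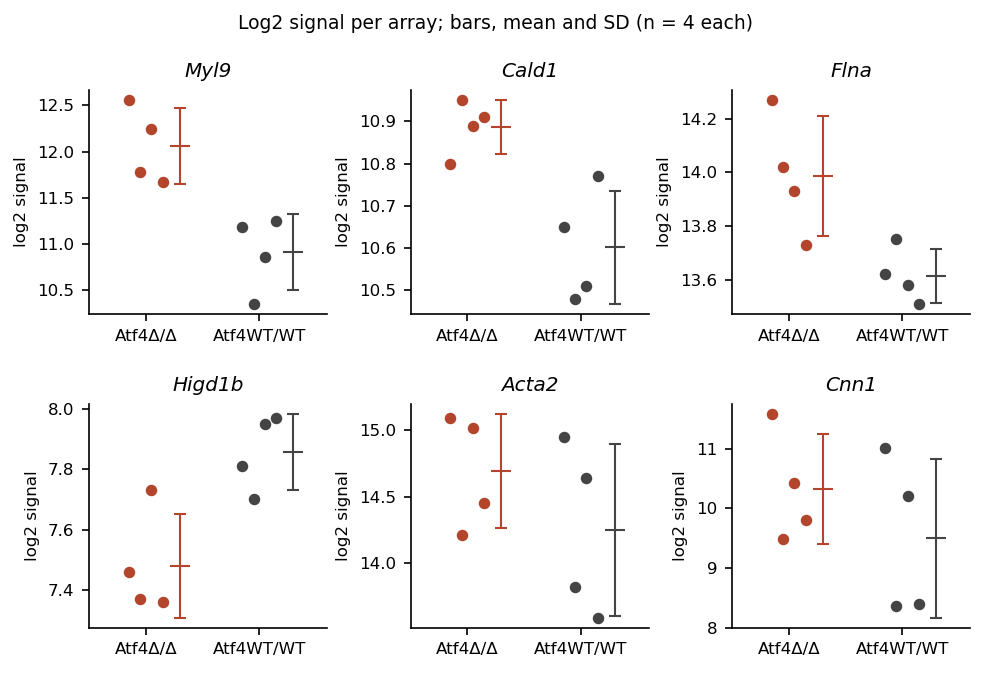
Log2 signal on each array for Myl9, Cald1, Flna, Higd1b, Acta2 and Cnn1, Atf4Δ/Δ lungs at the left of each panel and Atf4WT/WT lungs at the right, in replicate order, with the mean and SD of 4 lungs beside the points. Each panel has its own axis. Myl9 and Cald1 separate the genotypes, Flna and Higd1b overlap in single lungs, and Acta2 and Cnn1 spread widely within each genotype.

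Proteins that anchor or cross-link the filaments gave 7 genes with a median difference of 0.17, from -0.05 to 0.37. Flna, filamin A, which cross-links actin and ties it to membrane receptors in most cell types, read 14.27, 14.02, 13.93 and 13.73 in Atf4Δ/Δ lungs and 13.62, 13.75, 13.58 and 13.51 in Atf4WT/WT lungs. Only the lowest Atf4Δ/Δ lung lay within the Atf4WT/WT range. The difference was 0.37 (SE 0.11, 0.12 to 0.62), with an unadjusted p of 0.00827 and an adjusted p of 0.238. Des, the intermediate filament protein desmin, differed by 0.23 (-0.57 to 1.03), and Synpo2, synaptopodin 2 of the Z-disc and dense bodies, by 0.13 (-0.68 to 0.94). Smtn (smoothelin) and Lmod1 (leiomodin 1, which nucleates actin) differed by 0.25 (-0.07 to 0.57) and 0.17 (-0.18 to 0.52). Nexn (nexilin) and Csrp1, a LIM protein bound to actin filaments, were closest to 0 with -0.05 (-0.30 to 0.20) and -0.01 (-0.17 to 0.15).

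The calcium store was represented by Pln, phospholamban, the brake on the calcium pump of the sarcoplasmic reticulum, and Casq2, the store's calcium buffer calsequestrin 2. Pln ranged from 6.06 to 8.25 in Atf4Δ/Δ lungs and from 5.54 to 7.86 in Atf4WT/WT lungs. Casq2 ranged from 5.76 to 8.10 in Atf4Δ/Δ lungs and from 5.61 to 7.23 in Atf4WT/WT lungs. Both spanned several-fold between lungs of the same genotype, and the genotype differences of 0.15 (-1.16 to 1.45) and 0.33 (-0.87 to 1.53) were small beside that spread. Their lungs fell in the same order, high to low, as the mean of 13 cardiac muscle markers, which was 9.85, 7.51, 8.01 and 8.61 in Atf4Δ/Δ replicates 1 to 4 and 9.43, 8.54, 8.20 and 7.37 in Atf4WT/WT replicates 1 to 4. The defining cardiac gene Myh6 lay between 10.07 and 13.69 in Atf4Δ/Δ lungs and between 9.41 and 12.79 in Atf4WT/WT lungs, whereas skeletal muscle markers stayed flat. The part of the cardiac markers in the values of Pln and Casq2 was not tested.

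Myocd, the coactivator myocardin, was dim and differed by 0.42 (-0.08 to 0.93, adjusted p = 0.50). It read 6.47 to 7.01 in Atf4Δ/Δ lungs and 5.75 to 6.87 in Atf4WT/WT lungs. Srf, the factor it works with, differed by 0.21 (-0.04 to 0.46) and the related coactivators Mrtfa and Mrtfb by 0.15 and 0.16, with none of the 3 at an unadjusted p of 0.05.

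The most regular feature of the contractile genes was the spread between lungs of the same genotype. Pooled over both genotypes, the median within-genotype SD was 0.39 for the 20 contractile genes, from 0.09 to 1.15, against 0.17 for the 9 pericyte genes and 0.14 for the 13303 genes at least as bright as the dimmest member. For 12 of 20 contractile and 2 of 9 pericyte genes (Rgs5 and Art3) the SD exceeded that of 90% of those genes. Cnn1 (SD 1.15) exceeded 98.7% of them, Pln (1.00) 98.2%, Casq2 (0.92) 97.9% and Myh11 (0.74) 97.2%. Csrp1 (0.09), Cald1 (0.11) and Tpm1 (0.15), with SDs below or near the median of the bright genes, stood at the other end.

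**Figure D3:**
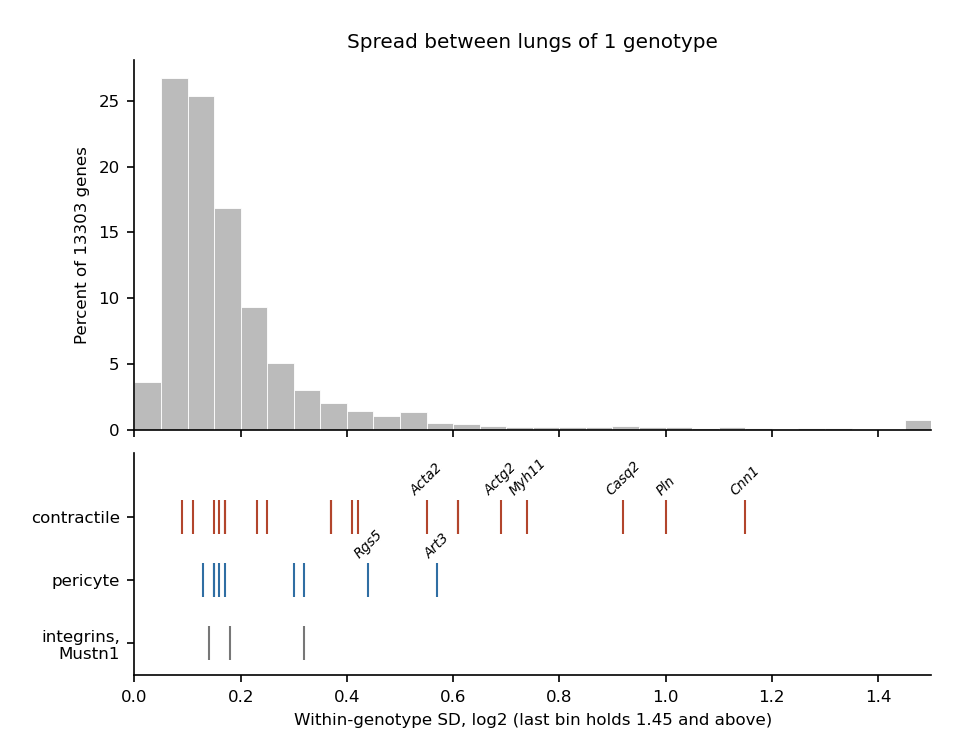
Distribution of the within-genotype SD (log2) over the 13303 genes at least as bright as the dimmest member, in bins of 0.05 as a percentage of genes, above the SD of each member by class (vertical marks). The last bin gathers 98 genes of 1.45 and above, and contractile genes reach further right than pericyte genes.

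The lungs that were high were largely the same from gene to gene. Atf4Δ/Δ replicate 1 was the highest of its genotype for 17 of 20 contractile genes and Atf4WT/WT replicate 1 for 14, where they were the highest for 30.2% and 24.1% of the bright genes. Atf4Δ/Δ replicate 2, a female, was the lowest for 13 contractile genes and Atf4WT/WT replicate 4, a male, for 11, where they were the lowest for 29.9% and 19.3% of the bright genes. The same lungs were extreme for the mean of 13 cardiac muscle markers. It was highest in replicate 1 of each genotype (Atf4Δ/Δ 9.85, Atf4WT/WT 9.43) and lowest in Atf4Δ/Δ replicate 2 (7.51) and Atf4WT/WT replicate 4 (7.37). The part of cardiac muscle in the contractile pattern was not tested. Myh11, Cnn1, Des and Synpo2 placed the lungs in an identical order in both genotypes, replicate 1 highest, then 3, 4 and 2. The numbers do not pair lungs across genotypes by the labels, and over all transcript clusters same-numbered lungs did not deviate together. Cald1 was an exception, with replicate 1 the lowest of the Atf4Δ/Δ lungs and replicate 4 the highest of the Atf4WT/WT lungs. Myl9 and Nexn also had replicate 4 as the highest of the Atf4WT/WT lungs.

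**Figure D4:**
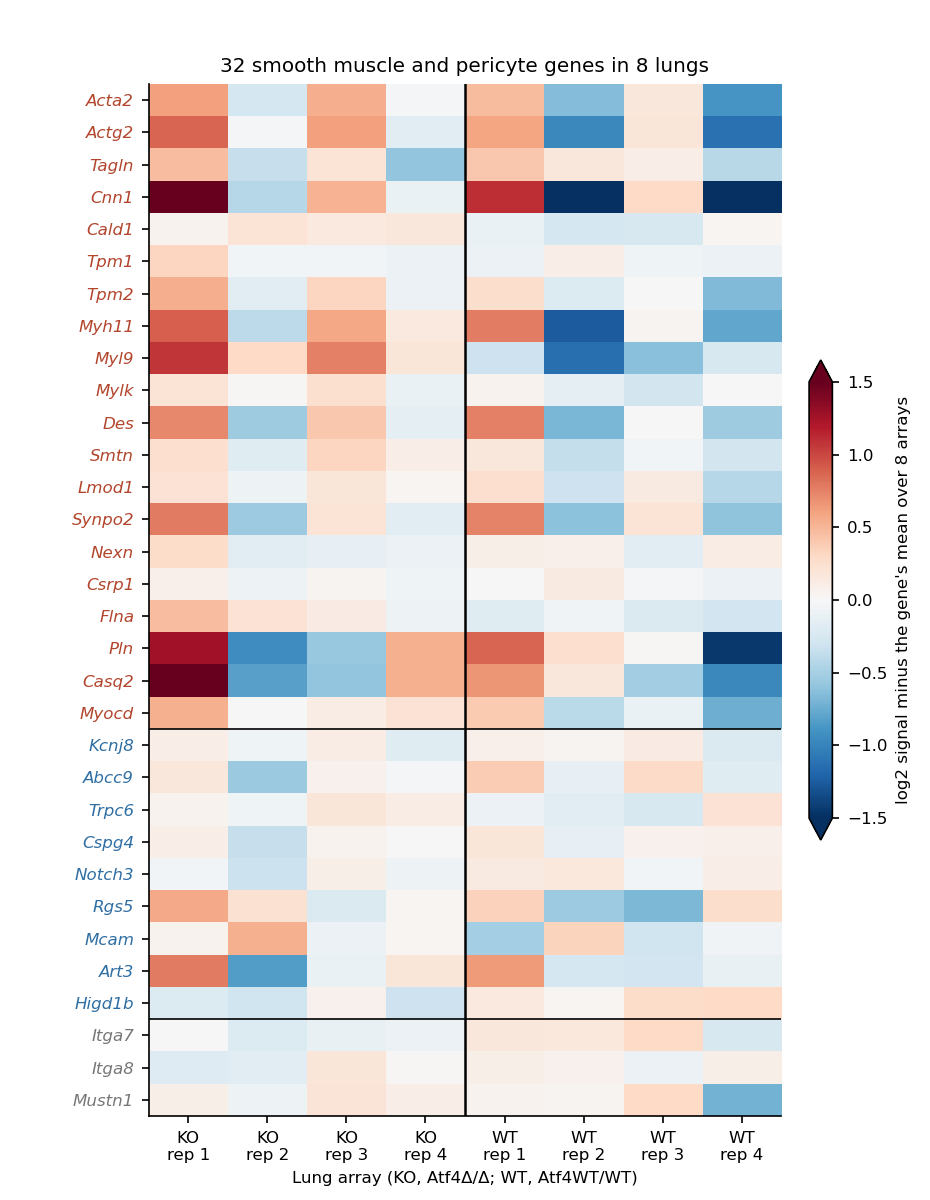
Log2 signal of the 32 genes (rows, by class) on each array (columns, Atf4Δ/Δ at the left and Atf4WT/WT at the right), as the deviation from the gene's mean over 8 arrays, with colours saturating at 1.5 in both directions. Most contractile rows are red in replicate 1 of both genotypes and blue in Atf4WT/WT replicates 2 and 4, whereas most pericyte rows are pale.

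Pericyte genes showed no common direction, and most of them lacked that spread. Their median difference was -0.02, with a range of -0.38 to 0.30, and 4 had the higher and 5 the lower mean in Atf4Δ/Δ lungs. Part of the lung order recurred among them. Replicate 1 was the highest in both genotypes for 4 of 9 pericyte genes, and Atf4Δ/Δ replicate 2 was the lowest of its genotype for 5. The mean over the 9 genes was 8.86, 8.49, 8.70 and 8.66 in Atf4Δ/Δ lungs and 8.83, 8.61, 8.60 and 8.73 in Atf4WT/WT lungs. The 2 genotypes averaged 8.68 ± 0.15 and 8.69 ± 0.11 (Atf4Δ/Δ and Atf4WT/WT, SD, n = 4 each).

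Surface and signalling genes of pericytes lay close between genotypes or varied within them. Cspg4, the NG2 proteoglycan by which pericytes are stained, read 6.96, 6.51, 6.91 and 6.86 in Atf4Δ/Δ lungs and 7.04, 6.74, 6.92 and 6.93 in Atf4WT/WT lungs. The groups overlapped, and the difference of -0.10 had an interval of -0.34 to 0.15 (adjusted p = 0.778). Rgs5, a regulator of G-protein signalling enriched in pericytes of many organs, read 7.37, 7.03, 6.58 and 6.83 in Atf4Δ/Δ lungs and 7.15, 6.25, 6.13 and 7.06 in Atf4WT/WT lungs, with a difference of 0.30 (-0.29 to 0.89, adjusted p = 0.707). Its values were dim, the groups overlapped and replicate 1 was the highest in both. Notch3, the receptor of mural cells, differed by -0.17 (-0.37 to 0.03) and Mcam, an adhesion molecule shared with endothelium, by 0.26 (-0.17 to 0.69). Art3, an ADP-ribosyltransferase family member, differed by 0.01 (-0.73 to 0.76) and spread from 6.65 to 8.27 in Atf4Δ/Δ lungs and from 7.20 to 8.13 in Atf4WT/WT lungs, with replicate 1 the highest in both.

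Among the channel genes, Kcnj8, the pore of the vascular ATP-sensitive potassium channel, read 6.96, 6.80, 6.98 and 6.68 in Atf4Δ/Δ lungs and 6.94, 6.91, 6.99 and 6.65 in Atf4WT/WT lungs. Its lungs fell in the same order in both genotypes, and the difference was -0.02 (-0.24 to 0.20, adjusted p = 0.958). Abcc9, the sulphonylurea receptor subunit of that channel, differed by -0.18 (-0.59 to 0.23), and Trpc6, a calcium-permeable channel, by 0.14 (-0.10 to 0.38). Of the 3 members whose windows hold a CArG-like element, Trpc6 had the smallest difference, against 0.44 for Acta2 and 1.15 for Myl9. A relation between the element and the difference was not tested.

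Higd1b, a mitochondrial membrane protein gene used as a marker of lung capillary pericytes in mice, was the member lowest in Atf4Δ/Δ relative to Atf4WT/WT lungs. It read 7.46, 7.37, 7.73 and 7.36 in Atf4Δ/Δ lungs and 7.81, 7.70, 7.95 and 7.97 in Atf4WT/WT lungs. Atf4Δ/Δ replicate 3 lay just inside the Atf4WT/WT range, and the other 3 lay below it. The difference was -0.38 (SE 0.10, -0.61 to -0.15), a fold of 1.3, with an unadjusted p of 0.00442 and an adjusted p of 0.192. In 18 other settings it lay between -0.46 and -0.31, and the adjusted p between 0.101 and 0.494. The pericyte genes Kcnj8, Cspg4 and Notch3 differed by less than Higd1b, and the difference between them was not tested.

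The 3 remaining members gave small differences. Itga7, the laminin-binding integrin of muscle, differed by -0.20 (-0.46 to 0.06), and Itga8, an integrin of smooth muscle and alveolar myofibroblasts, by -0.08 (-0.29 to 0.13). Mustn1, a nuclear protein of the musculoskeletal system, differed by 0.16 (-0.27 to 0.59), with 1 low lung, Atf4WT/WT replicate 4 at 8.45. None of the 3 reached an unadjusted p of 0.05.

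Set against each other within each lung, the mean log2 of the contractile genes minus that of the pericyte genes was 1.94, 1.46, 1.66 and 1.51 in Atf4Δ/Δ replicates 1 to 4 and 1.68, 1.17, 1.51 and 0.89 in Atf4WT/WT replicates 1 to 4. The lungs of the genotypes overlapped, Atf4WT/WT replicate 4 being the lowest. Because probes differ in brightness, these values compare lungs and not the amounts of contractile and pericyte RNA.

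Other genes of the same machinery were read from lists chosen by pathway, whose counts at an unadjusted p of at most 0.05 stand against 6.26% of all genes higher and 7.19% lower (10.8% and 10.6% of the bright genes). Of 20 genes of the adhesion plaque and dystrophin complex, which fasten the filaments to the membrane, 18 were measured, 0 were called, and 6 (33.3%) were higher and 0 lower at an unadjusted p of at most 0.05. Zyx (zyxin) read 11.49, 11.59, 11.30 and 11.09 in Atf4Δ/Δ lungs against 10.54, 10.68, 10.64 and 10.86 in Atf4WT/WT lungs, a difference of 0.69 (SE 0.12, adjusted p = 0.0538). Tln1, talin, which links integrins to actin, differed by 0.64 (SE 0.12, adjusted p = 0.0706), with all Atf4Δ/Δ lungs above all Atf4WT/WT lungs. Vcl (vinculin) and Fhl1 differed by 0.31 and 0.22 (adjusted p = 0.173 and 0.239), also without overlap.

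Ion channels set the membrane potential and calcium entry of smooth muscle. Of 12 channel genes 10 were measured, 0 were called, and 2 were lower and 0 higher at an unadjusted p of at most 0.05. Kcna5, a voltage-gated potassium channel of pulmonary arteries, differed by -0.39 (SE 0.11, adjusted p = 0.196), and Cacna1c, the pore of the L-type calcium channel, by -0.23 (SE 0.08, adjusted p = 0.318), each with all Atf4Δ/Δ lungs below all Atf4WT/WT lungs. Of 13 contractile receptors and nitric oxide response genes 9 were measured, and 1, the cyclic nucleotide phosphodiesterase Pde3a, was higher by 0.49 at an unadjusted p of 0.0152 (adjusted p = 0.29). All 17 genes for recruitment of pericytes were measured and 0 were called. The ligand Pdgfa differed by -0.22 (adjusted p = 0.297), and the angiopoietin receptor Tek and the Notch ligand Dll4 by 0.30 and 0.29 (adjusted p = 0.305 and 0.318).

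Of 44 mural cell markers compiled by the study from published work, 42 were measured and 14 are also members. Their median difference was 0.16, 1 was called higher (Mrvi1) and 0 lower, and 9 (21.4%) were higher and 4 (9.52%) lower at an unadjusted p of at most 0.05. Mrvi1, the substrate of cGMP-dependent kinase that holds back calcium release from the store in smooth muscle and platelets, read 7.82, 7.36, 7.60 and 7.18 in Atf4Δ/Δ lungs against 6.28, 5.79, 6.06 and 6.18 in Atf4WT/WT lungs. It rose by 1.41 (SE 0.15, adjusted p = 0.0133), a 2.66-fold difference without overlap. The lower ones included Mgst3 (-0.47, adjusted p = 0.105) and Cox4i2, a cytochrome oxidase subunit of lung and pericytes (-0.45, adjusted p = 0.166). The study compiled markers of vascular cancer-associated fibroblasts in the same way and read them in melanoma tumours, whereas the values here are from whole lungs. Of these 24 markers, 21 were measured and 4 are also members. Their median was -0.14, 0 were called, and 1 (4.76%) was higher and 8 (38.1%) were lower at that p, among them the basement membrane genes Col4a1 (-0.66, adjusted p = 0.0624) and Col18a1 (-0.32, adjusted p = 0.155) and the plasma protein gene Vtn (-0.44, adjusted p = 0.101).

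Markers of other cells differed with genotype. Platelets contain Myl9 and Flna, and also Tln1, Zyx, Vcl and Mrvi1. The mean of platelet markers (9 of 12 measured) was 11.57, 11.31, 11.32 and 10.45 in Atf4Δ/Δ replicates 1 to 4 and 8.08, 8.48, 8.11 and 10.27 in Atf4WT/WT replicates 1 to 4. All 9 were higher in Atf4Δ/Δ lungs at an unadjusted p of at most 0.05, with a median difference of 2.30, and Tubb1 (3.64, adjusted p = 0.0368) and Itga2b (2.06, adjusted p = 0.0476) were called. Within genotypes, Atf4Δ/Δ replicate 4 had the lowest platelet mean and the lowest Myl9 and Flna of the Atf4Δ/Δ lungs. Atf4Δ/Δ replicate 1, with the highest platelet mean, had the highest Myl9 and Flna of the Atf4Δ/Δ lungs but the lowest Cald1 (10.80). Atf4WT/WT replicate 4 had the highest platelet mean and the highest Myl9 and Cald1 of the Atf4WT/WT lungs, but the lowest Flna. The lowest Myl9 of the Atf4WT/WT lungs (10.35) was in replicate 2, whose platelet mean of 8.48 exceeded those of replicates 1 and 3. Without Atf4WT/WT replicate 4 the difference was 1.26 for Myl9 (adjusted p = 0.145) and 0.34 for Flna (adjusted p = 0.385). The part of platelet RNA in these values was not tested.

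**Figure D5:**
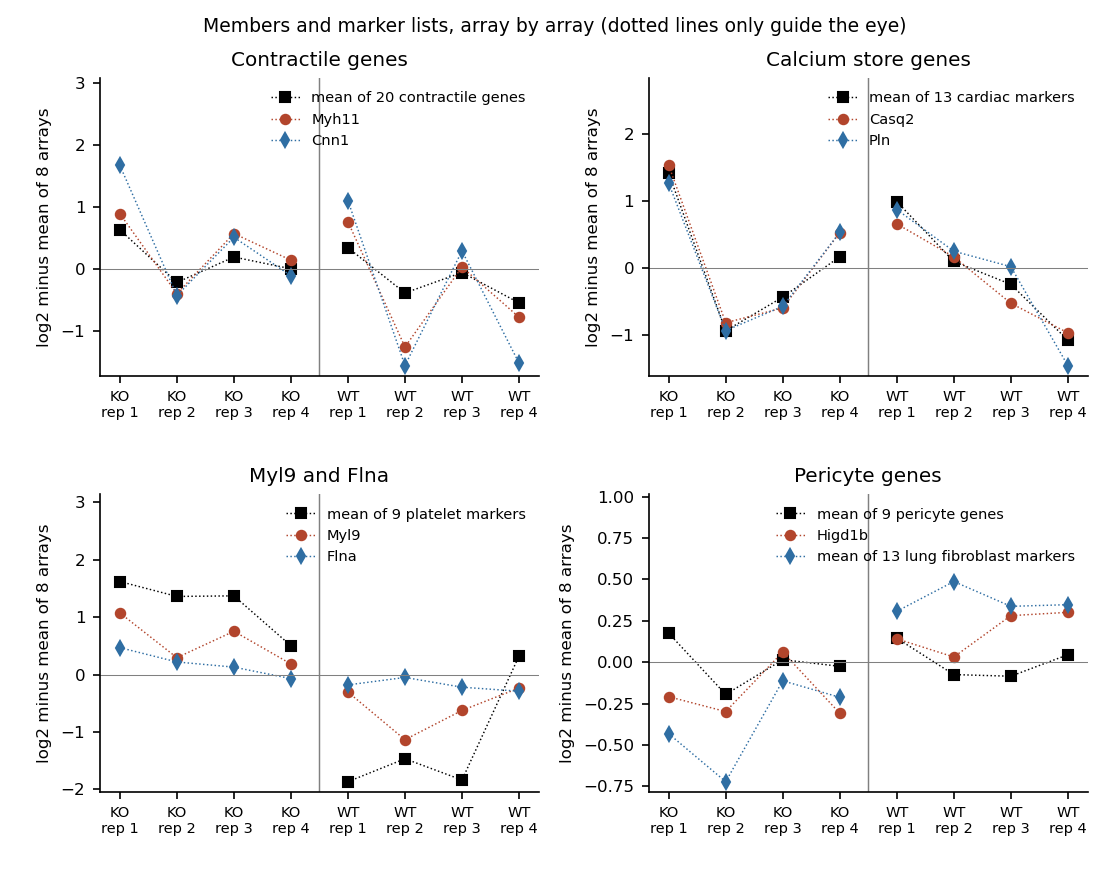
Log2 values on each array, Atf4Δ/Δ lungs at the left and Atf4WT/WT lungs at the right of each panel, as deviations from the mean of 8 arrays, for members beside the mean of a marker list. Casq2 and Pln follow the cardiac marker mean lung by lung, Myl9 lies above its mean in the 4 Atf4Δ/Δ lungs as the platelet mean does (that mean is also above average in Atf4WT/WT replicate 4), and the pericyte mean stays within 0.20 of its average.

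Blood and stromal markers also differed. Means were 7.18 to 8.02 in Atf4Δ/Δ lungs and 6.0 to 6.21 in Atf4WT/WT lungs for erythroid markers (5 of 8 measured, Alas2 called higher), and 8.87 to 11.75 in Atf4Δ/Δ lungs and 7.94 to 8.70 in Atf4WT/WT lungs for 10 neutrophil markers (0 called). The erythroid markers were uneven, with Slc4a1 3.70, Alas2 2.93, Epb42 0.63, Hemgn 0.10 and Klf1 -0.11, the last with all Atf4Δ/Δ lungs below all Atf4WT/WT lungs. All 10 neutrophil markers had the higher mean in Atf4Δ/Δ lungs, from 0.05 (Camp) to 3.72 (Retnlg). Lung fibroblast markers (13 of 14 measured) averaged 10.49 to 11.10 in Atf4Δ/Δ lungs and 11.52 to 11.70 in Atf4WT/WT lungs. Their median difference was -0.51. Of the 13, 2 had the higher mean in Atf4Δ/Δ lungs (Pi16 by 0.34, Dcn by 0.08) and 11 the lower, Inmt by only 0.04. The 3 called fibroblast genes were collagens, and differed by -2.46 (Col3a1), -2.03 (Col1a1) and -1.47 (Col1a2), with adjusted p = 0.0133, 0.016 and 0.0462. The endothelial marker Eng was called higher by 0.69 (adjusted p = 0.0418), while Emcn differed by -0.61 without overlap (adjusted p = 0.328). Of 8 endothelial markers, 5 had the higher and 3 the lower mean in Atf4Δ/Δ lungs. The mean of the 8 was 14.47 to 14.67 in Atf4Δ/Δ lungs and 14.30 to 14.67 in Atf4WT/WT lungs. Markers of alveolar duct myofibroblasts, which also make Acta2, averaged 7.80 to 8.08 in Atf4Δ/Δ lungs and 7.96 to 8.30 in Atf4WT/WT lungs, with 2 of 6 lower at an unadjusted p of at most 0.05 and 0 called. The part of these cells in the members' values was not tested.

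The limma interaction of genotype and sex reached an adjusted p of 0.05 in 0 members and an unadjusted p of 0.05 in 1 (lowest adjusted p 0.703). With 1 female per genotype this test has little precision. In males only (3 and 3 lungs), the higher members at an unadjusted p of at most 0.05 were Myl9, Smtn, Cald1 and Flna and the lower member was Higd1b, where 4.8% of all genes were higher and 5.19% lower.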

How the data were processed

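Total RNA of 8 lungs (1 array per mouse) was hybridised to one-colour Clariom D mouse arrays. The deposited values are log2 signals that the authors made by default RMA in the Transcriptome Analysis Console, which corrects background, quantile-normalises the arrays and summarises probes. They reach 19.68, so folds are folds on this deposited scale. Detection calls, scan dates and sharing of probes between paralogues were not analysed here, and the number of arrays limits precision.

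A linear model per transcript cluster was fitted in limma 3.58.1 under R 4.3.3 (eBayes, two-sided, Benjamini-Hochberg adjustment over 65956 transcript clusters, no covariate, no filter), tested on simulated data. A call needed a fold above 1.5 as well as an adjusted p no higher than 0.05. Symbols came from the platform annotation (30638 clusters with 1 symbol, 2176 with several, 33142 with none), and the brightest cluster stood for a gene. Members and lists were chosen with earlier results of these data known. All members were accounted for, with every array's values for those at an unadjusted p of at most 0.05 and for Acta2, Tagln, Myh11, Cspg4, Kcnj8 and Rgs5, and with up to 4 genes named per list by smallest p; Cnn1 and Myh6 were added after their values were seen. Promoters came from RefSeq (GRCm38.p6). Alternatives were other normalisations, filters, variance models, the methods' t-test, sex, the replicate block and each array left out. One pathway list is not reported here.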

Additional observations from a re-analysis of the deposited data

Results flagged for a closer look

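In 4 of 66 groups of 4 lungs (each of the 32 genes and Atf4 in each genotype), 1 lung lay far from the other 3, its gap to the nearest taking more of the group's range than Dixon's 95% limit allows, which chance gives in about 1 of 20 groups. Tpm1 read 12.13 in Atf4Δ/Δ replicate 1, against 11.72 to 11.77 in the other Atf4Δ/Δ lungs. Tpm1 also read 11.91 in Atf4WT/WT replicate 2, against 11.72 to 11.75 in the other Atf4WT/WT lungs. Nexn read 9.30 in Atf4WT/WT replicate 3, the female, against 9.54 to 9.58 in the other Atf4WT/WT lungs. Itga8 read 14.53 in the same lung, against 14.68 to 14.71.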

How the results depend on the processing

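No member was called in any setting (0 lower and 0 higher, also with the methods' t-test and with each array left out). In the main fit the counts were also 0 at any fold and at an adjusted p of at most 0.1. Myl9 passed that laxer limit without Atf4WT/WT replicate 1 (1.24, limma adjusted p = 0.0762). It also passed with 1 cluster per gene tested (1.15, limma adjusted p = 0.086) and with only clusters above the median signal (1.15, limma adjusted p = 0.0924). The count of members lower at an unadjusted p of at most 0.05 was 2 with sex as a covariate (Higd1b and Notch3; 6.76% of all genes), and 1 member had all Atf4Δ/Δ lungs below all Atf4WT/WT lungs in males only (10.8% of all genes). With arrays left out in turn, 3 to 8 members were higher (8 without Atf4WT/WT replicate 1) and 1 to 2 lower at that p, against 5.31% to 6.53% and 5.16% to 10.4% of all genes. In the same settings 2 to 3 members lay wholly above and 0 to 2 wholly below, against 5.16% to 6.46% and 6.22% to 11% of all genes. With arrays left out in turn, the contractile median lay between 0.16 (without Atf4Δ/Δ replicate 1) and 0.42 (without Atf4WT/WT replicate 1), and the pericyte median between -0.15 and 0.00. In males only they were 0.45 and 0.04, and with cyclic loess 0.28 and 0.02. The replicate numbers were taken up as a block although correlations of same-numbered deviations were -0.0377, 0.0613, 0.0274 and -0.1874, so they do not pair the lungs and not every lung correlated best with its own number. Under that block 11 members were higher at an unadjusted p of at most 0.05, against 6.13% of all genes, and 0 were called.

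Of 608 pairs of a member and a setting, 577 kept direction and call and 31 turned direction, in 11 members whose main difference was at or below 0.33 in size. Csrp1 was 0.02 with median-centred arrays, 0.02 with cyclic loess, 0.01 with array weights and 0.00 in males only. Kcnj8 was 0.00 with median-centred arrays, 0.02 with cyclic loess and 0.03 in males only. In males only Abcc9 was 0.04 and Cspg4 0.01. With arrays left out, the ranges that crossed 0 were -0.03 to 0.11 for Tpm1, -0.10 to 0.40 for Synpo2, -0.31 to 0.48 for Pln, -0.13 to 0.66 for Casq2, -0.25 to 0.29 for Art3, -0.04 to 0.04 for Csrp1, -0.15 to 0.00 for Cspg4, -0.31 to 0.04 for Tagln, -0.10 to 0.04 for Kcnj8 and -0.05 to 0.28 for Mustn1. The cause of these turns was not tested. Keeping the mean of all clusters of a symbol changes nothing, as each member has 1.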
